A study of Mus musculus with 20 samples.

Results

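The genes of MHC class I antigen presentation were followed in bone marrow neutrophils as a set of 10: the classical heavy chains H2-K1 and H2-D1, the light chain B2m, the peptide transporter subunits Tap1 and Tap2, the loading chaperone Tapbp (tapasin), the immunoproteasome subunits Psmb8, Psmb9 and Psmb10, and the transactivator Nlrc5. They were chosen by symbol, all 10 were among the 24421 genes listed, and all 10 were among the 14030 genes that passed the filter on low counts. Bulk RNA-seq had been done on 20 libraries in 4 groups of 5: untreated wild type (WT), untreated Bmal1Mye-/-, imiquimod (IMQ)-treated WT and IMQ-treated Bmal1Mye-/-. WT mice were purchased C57BL/6J animals. Bmal1Mye-/- mice carried floxed Bmal1 alleles with Cre expressed from the Lyz2 (LysM) locus, so that the clock gene is deleted in Lyz2-expressing myeloid cells and is intact elsewhere, and each also has a Cre insertion in Lyz2 that WT lacked. IMQ, an agonist of the RNA-sensing receptors TLR7 and TLR8, was given as a cream on the ears of young adult females for 6 weeks to induce a lupus-like disease. The methods give no age for untreated mice and do not call the WT mice littermates. Neutrophils were taken from the marrow by magnetic negative selection. Nothing in the labels says that a library is a pool, and each is treated here as 1 mouse.

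MHC class I molecules show peptides from inside a cell to CD8 T cells. Proteasomes cut proteins into peptides, the TAP1-TAP2 transporter moves them into the endoplasmic reticulum, and tapasin holds an empty heavy chain with its B2m light chain at the transporter until a peptide is bound. Interferons raise the whole set and bring in the immunoproteasome, in which PSMB8, PSMB9 and PSMB10 take the places of the constitutive catalytic subunits PSMB5, PSMB6 and PSMB7. NLRC5 is the transactivator that works with an RFX, CREB/ATF and NF-Y complex on class I promoters. Neutrophils carry class I on their surface like other nucleated cells.

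On mm10, 7 of the 10 genes lie in the MHC on chromosome 17. H2-K1 is at chr17:33996017-34000347 on the minus strand and H2-D1 is at chr17:35262730-35267499 on the plus strand. Between them, Psmb9 (chr17:34181987-34187764, minus strand) and Tap1 (chr17:34187553-34197225, plus strand) start head to head and overlap by 212 bases, followed by Psmb8 (chr17:34197721-34201454) and Tap2 (chr17:34203527-34216321), while Tapbp is at chr17:33915899-33929292. B2m is at chr2:122147686-122153083, Nlrc5 at chr8:94434356-94527272 and Psmb10 at chr8:105935735-105938444. The promoters of both heavy chains, B2m and Tap1 are shown because the ratio of the heavy chains is described for every library, B2m is their partner, and Tap1 and Psmb9 share an upstream region. Each is the 250 bases before a RefSeq start on GRCm38.p6 in the direction of the gene, with these letters in capitals on either strand: CCAAT (the Y box bound by NF-Y), TGACG (the core of the X2 box), GGGGATTCC (the core of enhancer A), and the core of the interferon-stimulated response element (ISRE), GAAA, 2 bases and GAAA. The windows are chr17:34000348-34000597 for H2-K1, chr17:35262844-35263093 for H2-D1, chr2:122147437-122147686 for B2m and chr17:34187306-34187555 for Tap1.
H2-K1: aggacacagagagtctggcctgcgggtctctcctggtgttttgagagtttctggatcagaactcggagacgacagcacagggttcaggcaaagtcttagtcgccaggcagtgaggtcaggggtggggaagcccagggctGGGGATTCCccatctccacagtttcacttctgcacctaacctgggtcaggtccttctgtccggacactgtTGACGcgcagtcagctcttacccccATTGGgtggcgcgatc
H2-D1: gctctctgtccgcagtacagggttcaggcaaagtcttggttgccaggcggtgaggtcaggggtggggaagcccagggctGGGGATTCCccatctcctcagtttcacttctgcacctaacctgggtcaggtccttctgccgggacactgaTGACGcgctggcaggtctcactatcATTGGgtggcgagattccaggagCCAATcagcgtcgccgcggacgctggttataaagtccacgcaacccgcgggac
B2m: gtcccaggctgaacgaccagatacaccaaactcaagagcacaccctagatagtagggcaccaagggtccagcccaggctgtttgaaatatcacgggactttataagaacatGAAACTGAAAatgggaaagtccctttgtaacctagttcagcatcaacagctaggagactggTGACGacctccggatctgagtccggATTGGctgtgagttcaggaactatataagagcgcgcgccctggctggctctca
Tap1: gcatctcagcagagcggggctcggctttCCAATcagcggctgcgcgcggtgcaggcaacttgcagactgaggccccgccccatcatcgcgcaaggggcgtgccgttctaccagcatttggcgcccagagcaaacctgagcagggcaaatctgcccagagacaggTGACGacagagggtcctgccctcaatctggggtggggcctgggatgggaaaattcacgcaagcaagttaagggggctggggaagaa
Enhancer A and X2 letters stood in both heavy chain promoters, 111 and 41 bases before the start of H2-K1 and 171 and 101 bases before that of H2-D1. The B2m window held the ISRE core at 139, X2 at 78 and CCAAT at 53 bases before the start, and the Tap1 window held X2 and CCAAT at 86 and 222 bases. Of 32851 promoters of the same length, 0.213% held the enhancer A letters, 2.98% the ISRE core, 17.8% TGACG and 33.8% CCAAT. The E-box CACGTG, which BMAL1 and CLOCK bind, was in 6.02% of promoters and in the window of Psmb10 alone among the 8 members with an entry, 116 bases before its start. The interferon-gamma-activated site TTCNNNGAA was in 7.02% of promoters and, among the same genes, in that of Psmb8. A match describes letters only.

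The 20 libraries held 30782166 to 92613500 reads counted on genes. Markers of neutrophils were high in all, with summed levels of 72880 to 163400 CPM (counts scaled by library size) over 11 genes. Ly6g, Ighm and Trac are not among the genes listed. The lowest sums were 72880 in IMQ-treated Bmal1Mye-/- mouse 1, 103300 in IMQ-treated WT mouse 3 and 110400 in IMQ-treated Bmal1Mye-/- mouse 5, against at least 129200 in every other library. Monocyte and macrophage markers (11 genes) summed to 1681 CPM in the first of these and to 161 to 629 CPM elsewhere. Dendritic cell and class II markers, from cells that also present antigen, summed to 72.5 to 173 CPM without IMQ and 13.9 to 84.8 CPM with it. Plasma cell markers (6 genes) summed to 412 to 1577 CPM without IMQ and 153 to 426 CPM with it. Progenitor markers (8 genes) summed to 1654 CPM in IMQ-treated Bmal1Mye-/- mouse 1 and to 148 to 1185 CPM elsewhere. Counts of Arntl, the symbol for Bmal1 in the files, are over the whole gene: they were 0.895 to 1.71 CPM in untreated WT, 0.468 to 1.10 CPM in untreated Bmal1Mye-/-, 0.562 to 1.87 CPM in IMQ-treated WT and 0.338 to 1.52 CPM in IMQ-treated Bmal1Mye-/-, and the groups overlapped. In IMQ-treated Bmal1Mye-/- mouse 1 Arntl was at 1.52 CPM and in the 4 others at 0.338 to 0.711 CPM, so this library does not separate from WT by that gene. In bulk RNA, fewer cells of a type cannot be told apart from less RNA per cell.

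Without treatment, the class I genes were expressed at even levels, and none passed the test between genotypes. Per kilobase of exon, B2m was highest in untreated WT at 1128 ± 173 CPM per kb (SD, n = 5), followed by H2-D1 at 283 ± 39.4 and H2-K1 at 236 ± 45.1. The ranges of the heavy chains overlapped, from 227 to 312 for H2-D1 and from 187 to 300.1 for H2-K1. Tapbp stood at 83.5 ± 6.40 CPM per kb, Tap2 at 52.6 ± 1.34, Psmb8 at 30.8 ± 2.04 and Tap1 at 27.6 ± 2.46. The Psmb8 and Tap1 ranges overlapped. Psmb9 (21.2 ± 1.89), Psmb10 (13.4 ± 1.63) and Nlrc5 (1.87 ± 0.332) were the lowest, with ranges apart from one another. The order in untreated Bmal1Mye-/- was the same, with B2m at 1036 ± 88.4 and Nlrc5 at 1.99 ± 0.372 CPM per kb. Of the untreated genotype differences, on the log2 scale, the lowest was -0.20 ± 0.25 (SE) for Psmb9 and the highest 0.09 ± 0.58 for Nlrc5. None of the 10 passed the quasi-likelihood test of edgeR at an adjusted p of 0.05 (Benjamini-Hochberg, over all genes tested), which 0.207% of tested genes did, and none had an unadjusted p under 0.05 against 2.19% of genes. DESeq2 (0.177% of its genes called) and limma (0.214%) also called none.

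With IMQ the class I genes differed more between mice in both genotypes, as most tested genes did (plot of levels by library). In WT the log2 SD between mice went from a median over the members of 0.15 untreated to 0.56 treated, and in Bmal1Mye-/- from 0.14 to 0.73. All 10 were wider with treatment in each genotype. This was also so for 86.5% of all tested genes in WT, whose median SD went from 0.21 to 0.45, and for 84.3% in Bmal1Mye-/-, from 0.19 to 0.45. Counted against the untreated range of its own genotype, IMQ-treated WT mouse 1 lay above it in 10 of 10 members, mice 2 and 4 in 7 each, and mice 3 and 5 in 0, with mouse 3 below it in 7. IMQ-treated Bmal1Mye-/- mouse 4 lay above it in 9, mouse 2 in 7, mice 1 and 3 in 4 each, and mouse 5 below it in 10 of 10. The share of all tested genes outside the untreated range was not counted for any library. These counts therefore describe the libraries and are not a result about class I genes.

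**Figure D1:**
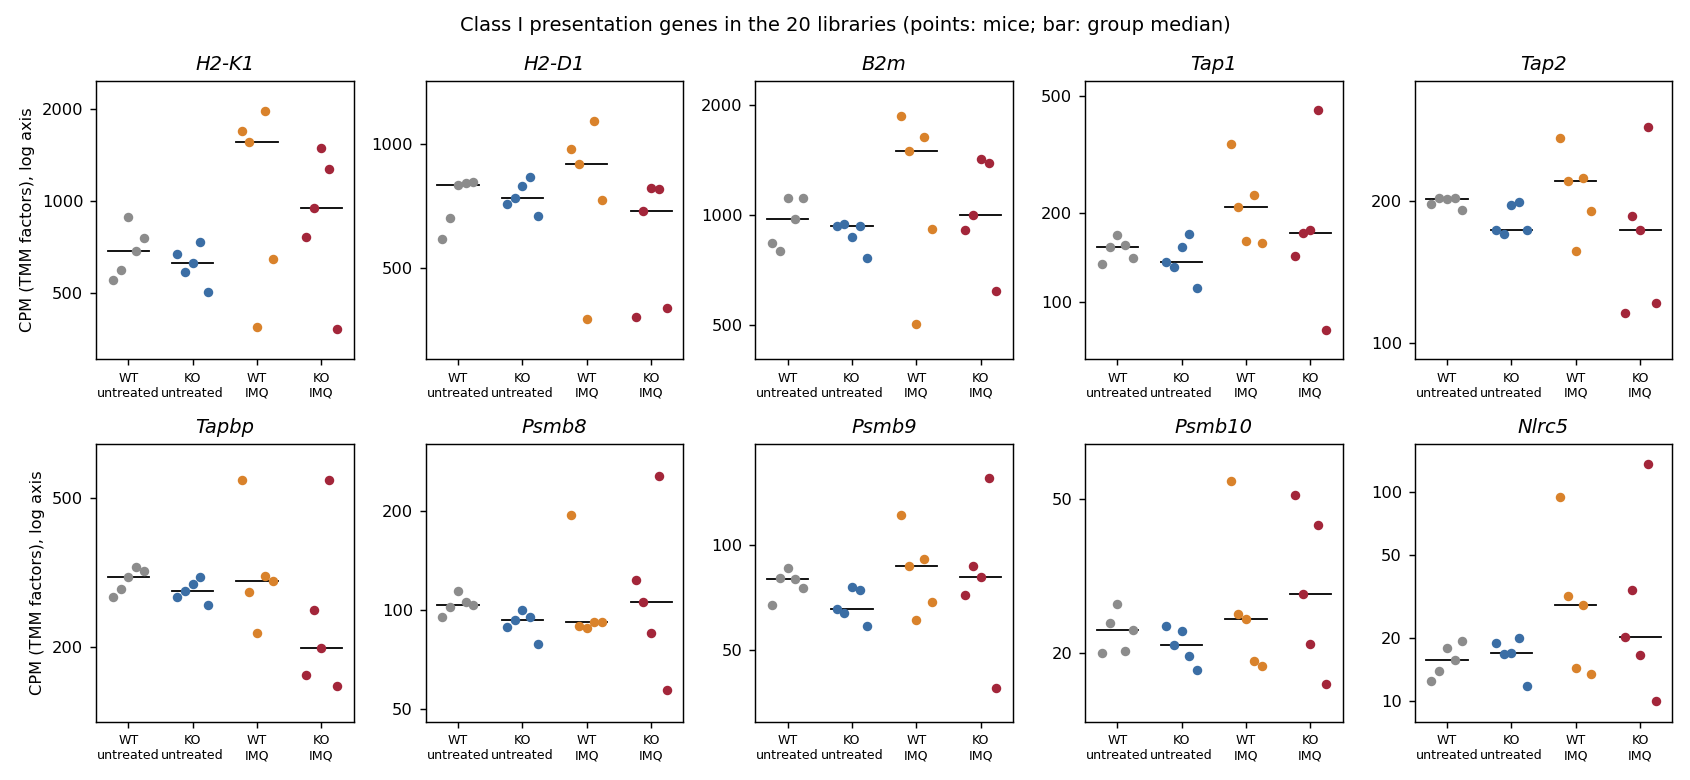
CPM (TMM factors, log axes) of the 10 class I presentation genes in each library by group, with points for mice and bars for group medians. Untreated mice sit close together, and IMQ-treated mice of either genotype reach from below to above them for most genes, as for H2-K1 from 387 to 1969 CPM in WT and for Nlrc5 from 9.97 to 135 CPM in KO (Bmal1Mye-/-). The exceptions are Tap1 and Nlrc5 in WT, with no treated mouse below, and H2-D1 in KO, with none above.

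The libraries at the extremes were extreme in other genes too. The mean log2 CPM of 20 interferon-stimulated genes (ISGs such as Ifit1, Isg15 and Mx1) was 7.34 in IMQ-treated WT mouse 1 and 7.42 in IMQ-treated Bmal1Mye-/- mouse 4. In the other 18 libraries it was between 3.27 and 5.14. The mean of the members' standardized levels was also highest in these libraries, at 1.90 and 1.92 SD, followed by IMQ-treated WT mice 4 and 2 at 0.70 and 0.56 SD. The ISGs of the latter were at 4.37 and 4.64, within the untreated range of 3.99 to 5.02. The lowest means of the members were -1.75 SD in IMQ-treated Bmal1Mye-/- mouse 5 and -0.95 SD in IMQ-treated WT mouse 3, 2 of the 3 libraries lowest in neutrophil markers. The lowest of the 3, IMQ-treated Bmal1Mye-/- mouse 1, was at -0.43 SD, within the untreated range of -0.73 to 0.24 SD. The part of ISGs or of neutrophil markers in the results was not tested. Values without the libraries extreme in them are given beside the differences with IMQ that moved most.

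**Figure D2:**
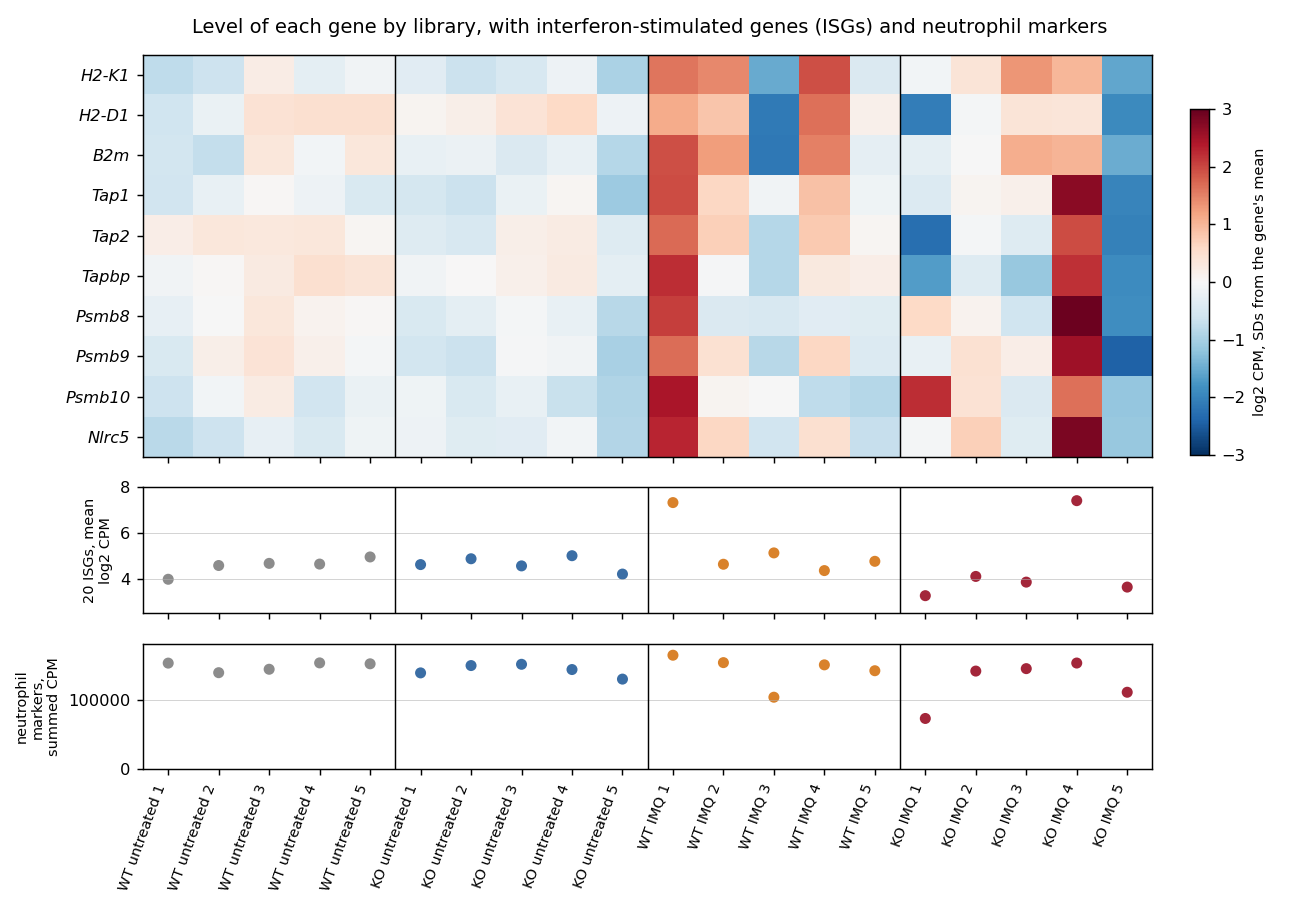
Level of each class I gene in each library as SDs from the gene's mean log2 CPM (top), the mean log2 CPM of 20 ISGs (middle) and the summed CPM of 11 neutrophil markers (bottom), with KO standing for Bmal1Mye-/-. IMQ-treated WT mouse 1 and KO mouse 4 are high across members and in ISGs (7.34 and 7.42), while IMQ-treated KO mouse 5 is low across all 10 members.

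H2-K1, a classical heavy chain of this strain, was higher with IMQ by edgeR when the genotypes were averaged, a call that limma and the replicate block did not make. It was at 550.1, 592, 882, 685 and 754 CPM in untreated WT mice 1 to 5 and at 671, 583, 627, 731 and 502 CPM in untreated Bmal1Mye-/- mice 1 to 5. With IMQ it was at 1695, 1553, 387, 1969 and 645 CPM in WT and at 758, 947, 1483, 1264 and 379 CPM in Bmal1Mye-/-. Of the treated mice, 3 of 5 WT and 4 of 5 Bmal1Mye-/- were above the untreated range and 1 of each was below it. The log2 difference was 0.85 ± 0.36 (SE; edgeR adjusted p = 0.172) in WT, 0.63 ± 0.36 (0.199) in Bmal1Mye-/- and 0.74 ± 0.26 (0.0336) as their average. Without the 2 libraries highest in ISGs the average was 0.63 (adjusted p = 0.0885), and with each library left out in turn it did not pass for 9 of 20, with adjusted p up to 0.0658. Limma's adjusted p was 0.0864 (0.59), and that with the replicate number as a block over all 4 groups was 0.0613 (0.66).

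H2-D1, the other classical heavy chain, covaried with H2-K1 between mice, with r = 0.71 over the 20 libraries, but its treated average stayed near the untreated one. It was at 586, 660, 796, 805 and 806 CPM in untreated WT and at 716, 737, 788, 832 and 669 CPM in untreated Bmal1Mye-/-. With IMQ it was at 970, 894, 375, 1137 and 729 CPM in WT and at 379, 687, 781, 778 and 398 CPM in Bmal1Mye-/-. In treated WT mice 3 of 5 were above the untreated range, and in treated Bmal1Mye-/- mice none was, with 2 of 5 below it. The difference with IMQ was 0.17 ± 0.24 in WT and -0.31 ± 0.24 in Bmal1Mye-/-, and the average was -0.07 ± 0.17 (edgeR adjusted p = 0.789). Without the 3 libraries lowest in neutrophil markers the Bmal1Mye-/- value was 0.0023 and the average 0.17. Across the 20 libraries the log2 level of H2-D1 had r = 0.84 with the summed neutrophil markers, given as a description over libraries that share groups and depth. That of H2-K1 had r = 0.41.

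The ratio of H2-K1 to H2-D1 counts within a library, which needs no scaling, was looked at after the levels had been seen and is given without a test. It was 0.938, 0.897, 1.11, 0.851 and 0.936 in untreated WT and 0.938, 0.792, 0.795, 0.879 and 0.751 in untreated Bmal1Mye-/-. With IMQ it was 1.75, 1.74, 1.03, 1.73 and 0.885 in WT and 2.00, 1.38, 1.90, 1.62 and 0.952 in Bmal1Mye-/-. In Bmal1Mye-/- the treated and untreated mice did not overlap, and in WT they did, since mice 3 and 5 stayed within the untreated range. The ratio was high in libraries with high and with low ISGs, and it was highest in the library with the fewest neutrophil marker counts. Of the 50-base windows of each transcript set in the annotation, 9.63% of those of H2-K1 and 12.8% of those of H2-D1 also occur in another gene, chiefly H2-Q genes and each other, so some reads of class I paralogs could be assigned to neither or to the wrong gene.

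B2m, the light chain shared by classical and nonclassical class I molecules, moved with H2-K1, with r = 0.96 over the 20 libraries. It was at 799 to 1116 CPM in untreated WT and 765 to 946 CPM in untreated Bmal1Mye-/-. In treated mice it was at 1863, 1502, 505, 1633 and 920 CPM in WT and at 913, 999.6, 1421, 1391 and 622 CPM in Bmal1Mye-/-. The differences were 0.41 ± 0.27 and 0.26 ± 0.27 on the log2 scale and passed in neither genotype nor in the average (0.33 ± 0.19, edgeR adjusted p = 0.184). H2-D1 per B2m was 0.697 to 0.826 in untreated WT and 0.521 to 0.793 in treated WT, and 0.766 to 0.903 and 0.415 to 0.687 in untreated and treated Bmal1Mye-/-, again as a description.

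Of the transporter subunits, Tap1 was above the untreated range in 3 of 5 treated mice of each genotype, and Tap2 in 3 of 5 WT and 1 of 5 Bmal1Mye-/- mice. Tap1 was at 135 to 169 CPM in untreated WT and 112 to 170.0 CPM in untreated Bmal1Mye-/-. Treated mice had 344, 210.3, 161, 231 and 159 CPM in WT and 143, 172, 176, 449 and 80.4 CPM in Bmal1Mye-/-. Its difference was 0.55 ± 0.31 in WT, 0.53 ± 0.31 in Bmal1Mye-/- and 0.54 ± 0.22 as the average (edgeR adjusted p = 0.0673). Without IMQ-treated Bmal1Mye-/- mouse 4 the Bmal1Mye-/- value was 0.04, and without IMQ-treated WT mouse 1 the WT value was 0.33. Tap2 was at 191 to 203 CPM in untreated WT, the narrowest of the set as a fold from lowest to highest, and its differences were 0.09 ± 0.19 and -0.05 ± 0.19. They were -0.01 and -0.27 without the 2 libraries highest in ISGs. Tapbp, which bridges the heavy chain to the transporter, was at 560.3 CPM in IMQ-treated WT mouse 1 and 560.0 CPM in IMQ-treated Bmal1Mye-/- mouse 4. In the other treated mice it was at 218 to 309 CPM in WT and at 158 to 251 CPM in Bmal1Mye-/-, where 4 of 5 lay below the untreated range of 259 to 307 CPM. Its differences were 0.14 ± 0.28 and -0.09 ± 0.28. Without the 2 libraries highest in ISGs, a choice made after seeing the data, Tapbp was lower with IMQ in Bmal1Mye-/- (-0.53, edgeR adjusted p = 0.0132, where 25.6% of genes passed) and in the average (-0.33, adjusted p = 0.0165, 30.3%), and at -0.13 in WT. Those libraries were left out for their ISG level, with which Tapbp had r = 0.89, and they held its highest levels. A lower treated level is thus partly built into that choice, and these Tapbp values are a description. The same holds for the Tap1 and Tap2 values without these libraries, which also held the highest Tap1 and Tap2 levels. Tapbp shares exon sequence with Zbtb22 on the same strand, and 23.2% of its windows occur in another gene.

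Psmb8 and Psmb9 were also highest in the 2 libraries with the highest ISGs. Psmb8 was at 95.1 to 114 CPM in untreated WT and 79.0 to 100.2 CPM in untreated Bmal1Mye-/-. Treated mice had 195, 89.6, 88.1, 92.0 and 91.7 CPM in WT and 124, 106, 85.2, 257 and 57.1 CPM in Bmal1Mye-/-. In WT 4 of 5 treated mice were thus below the untreated range. Psmb9 was at 122, 87.1, 60.7, 90.8 and 68.4 CPM in treated WT against 67.4 to 85.9 untreated. In Bmal1Mye-/- it was at 71.7, 86.7, 80.6, 156 and 38.8 CPM against 58.3 to 75.8. Psmb10 was high in these and also in the library with the most monocyte marker counts, IMQ-treated Bmal1Mye-/- mouse 1: it was at 51.2, 28.4, 21.2, 42.7 and 16.7 CPM in treated Bmal1Mye-/- against 18.1 to 23.5 untreated. In treated WT it was at 55.4, 25.2, 24.5, 19.1 and 18.5 CPM against 20.04 to 26.8. The differences in WT were 0.10 ± 0.29, 0.14 ± 0.25 and 0.32 ± 0.29 for Psmb8, Psmb9 and Psmb10, and those in Bmal1Mye-/- were 0.46 ± 0.29, 0.36 ± 0.25 and 0.61 ± 0.29. None passed. Without the 2 libraries highest in ISGs the WT differences were -0.20, -0.02 and -0.06, and those in Bmal1Mye-/- were 0.04, 0.06 and 0.50. Those libraries held the highest Psmb8 and Psmb9 levels, so lower differences of these 2 genes are partly built into leaving them out. Psmb10 in Bmal1Mye-/- was lowest, at 0.39, without mouse 1.

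Whether the immunoproteasome subunits changed against the constitutive subunits they replace was tested within libraries. Psmb8 to Psmb5 was 3.76 ± 0.421 (SD, n = 5) in untreated WT, 4.01 ± 1.72 in treated WT, 3.42 ± 0.310 in untreated Bmal1Mye-/- and 4.13 ± 2.7 in treated Bmal1Mye-/-. Psmb9 to Psmb6 was 1.68 ± 0.208, 1.66 ± 0.592, 1.51 ± 0.160 and 1.5 ± 0.873 in the same order. Psmb10 to Psmb7 was 0.395 ± 0.0484, 0.427 ± 0.193, 0.394 ± 0.0396 and 0.473 ± 0.208. None of the 12 two-sided exact permutation tests, 3 ratios in 4 comparisons, passed: the lowest p was 0.190 for Psmb8 to Psmb5 between untreated genotypes, each adjusted p was 1.0, and the smallest p that 5 against 5 allows is 0.00794. The constitutive subunits themselves were higher on average with IMQ for Psmb6 (0.33 ± 0.10, edgeR adjusted p = 0.0198) and Psmb7 (0.28 ± 0.09, 0.0246), and Psmb5 was at 0.11 ± 0.08 (0.264).

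**Figure D3:**
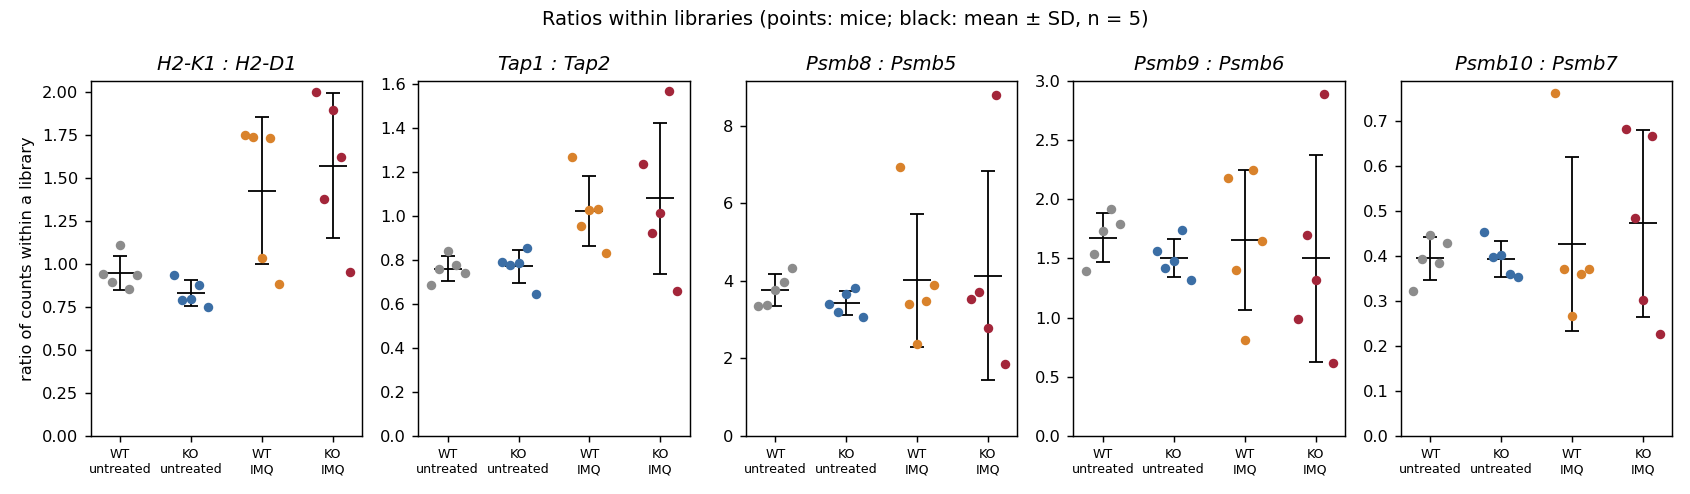
Ratios of counts of 2 genes within each library by group, with points for mice and black marks for the mean ± SD (n = 5), on linear axes from 0. H2-K1 to H2-D1 in treated KO (Bmal1Mye-/-) mice runs from 0.952 to 2.00, above the 0.751 to 0.938 of untreated KO mice, while the 3 immunoproteasome ratios of treated mice lie on both sides of the untreated ones.

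Nlrc5 was the lowest of the 10 per kilobase and the most variable with IMQ. It was at 12.4, 14.0, 17.99, 15.7 and 19.3 CPM in untreated WT and at 19, 16.8, 17.0, 20.04 and 11.8 CPM in untreated Bmal1Mye-/-. With IMQ it was at 94.1, 31.8, 14.45, 28.8 and 13.5 CPM in WT and at 20.3, 34.0, 16.5, 135 and 9.97 CPM in Bmal1Mye-/-. In each genotype 3 of 5 treated mice were above the untreated range. Its difference was 1.20 ± 0.58 (edgeR adjusted p = 0.231) in WT, 1.35 ± 0.58 (0.0935) in Bmal1Mye-/- and 1.28 ± 0.41 (0.0239) as the average, and the average did not pass without IMQ-treated WT mouse 1 (adjusted p = 0.0645), without IMQ-treated Bmal1Mye-/- mouse 4 (0.0676) or without both (0.186). Without these libraries the values were much lower: 0.48 in WT without mouse 1, 0.27 in Bmal1Mye-/- without mouse 4, and 0.38 as the average without both. They held the highest Nlrc5 levels of their groups, so lower values are partly built into leaving them out. Nlrc5 overlaps the noncoding gene 9330175E14Rik on the other strand, and whether the counting used strand is not given in the sources used here.

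All 10 log2 differences were above 0 in WT, with a median of 0.25 against 0.03 over all tested genes, of which 53.2% were above 0. The sign rested on 1 library for 5 of them: without IMQ-treated WT mouse 1, Tap2, Tapbp, Psmb8, Psmb9 and Psmb10 were between -0.20 and -0.01. In Bmal1Mye-/- 7 of 10 were above 0, with a median of 0.41 against 0.02. In WT none passed edgeR's adjusted threshold, which 3.95% of all tested genes passed, and 1 (H2-K1) had an unadjusted p under 0.05 against 22.3% of genes. DESeq2 (10% of its genes called) and limma (3.81%) called none. In Bmal1Mye-/- none passed against 23.5% of genes, 2 (Psmb10 and Nlrc5) had an unadjusted p under 0.05 against 39.3%, and DESeq2 (28.6%) and limma (18.6%) called none. In the average of both genotypes 2 passed, H2-K1 and Nlrc5, against 32.7% of genes, and 4 had an unadjusted p under 0.05 against 44.0%. DESeq2 called the same 2 (32.1% of its genes) and limma none (26.8%). With the replicate number as a block the average comparison called 0 members (adjusted p = 0.0613 for H2-K1 and 0.0874 for Nlrc5). Without the 3 libraries lowest in neutrophil markers, a choice made after seeing the data, 2 members passed in WT (H2-K1 and B2m) against 8.56% of genes, 4 in Bmal1Mye-/- (H2-K1, Tap1, Psmb9 and Nlrc5) against 14.1% and 5 in the average (the same 4 and B2m) against 27.3%, all higher with IMQ. Those 3 libraries were all IMQ-treated and included the 2 with the lowest mean levels of the members (-1.75 and -0.95 SD). A higher treated level is thus partly built into that choice, and these calls are a description.

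**Figure D4:**
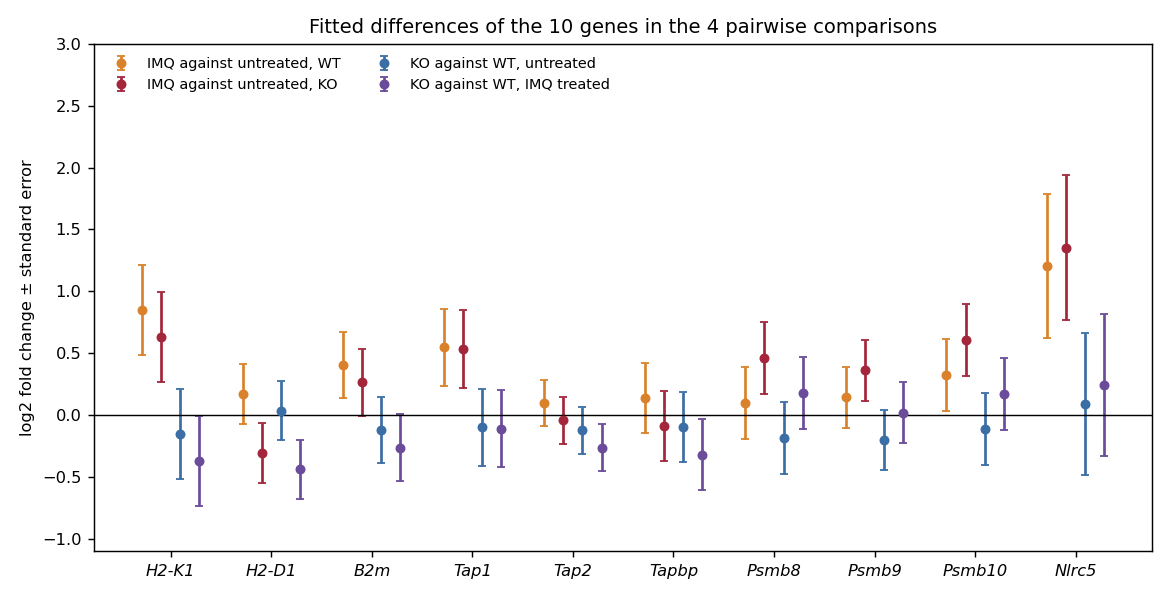
Log2 fold change ± standard error of each class I gene from the edgeR fit in the 4 pairwise comparisons, with KO standing for Bmal1Mye-/-. H2-K1 and Nlrc5 lie highest for IMQ in both genotypes (0.85 and 1.20 in WT, 0.63 and 1.35 in KO), and none of the points passed the adjusted test.

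Between genotypes, no member passed in treated mice either. The genotype differences with IMQ ran from -0.44 ± 0.24 for H2-D1 to 0.24 ± 0.57 for Nlrc5, with 6 of 10 below 0. None passed edgeR's adjusted test, which 0.292% of genes passed, and none had an unadjusted p under 0.05 against 19.9% of genes. DESeq2 (2.2%) and limma (0.328%) called none. Without IMQ-treated WT mouse 3, H2-D1 was lower in Bmal1Mye-/- by edgeR (-0.62, adjusted p = 0.0383), in a fit where 21.9% of all genes passed. That mouse had H2-D1 at 375 CPM, against 729 to 1137 CPM in the other treated WT mice. A lower Bmal1Mye-/- level is thus partly built into leaving it out, and this call is a description. The genotype differences with IMQ depend on scaling, since total counts in place of TMM factors moved the median of all tested genes from 0.03 to 0.23. The interaction of genotype and IMQ ran from -0.48 ± 0.34 for H2-D1 to 0.36 ± 0.41 for Psmb8. None of the 10 passed it by edgeR, DESeq2 or limma, each of which called 0.0% of all genes, and none had an unadjusted p under 0.05 against 5.14% of genes.

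The other genes of the pathway were read from lists drawn up by role. Of all tested genes, 2.34% rose with IMQ in WT, 14.4% rose and 9.04% fell in Bmal1Mye-/-, and 18.7% rose and 14.0% fell in the average. Of the genes called in WT, in Bmal1Mye-/- and in the average, 59.4%, 61.5% and 57.1% were higher with IMQ, against 24.3%, 57.3% and 44.7% by limma and 49.5%, 65.8% and 55.5% with total counts. Of the 11 other tested subunits of the proteasome core, 6 rose with IMQ in Bmal1Mye-/- and 8 in the average, none fell, and in WT none passed, with a median of 0.25. Without the 3 libraries lowest in neutrophil markers 2 rose in Bmal1Mye-/- and 5 in the average. Of the 14441 genes tested without those libraries, 1169 rose in Bmal1Mye-/- and 1967 in the average. Named by the smallest p in the fit of all 20 libraries, core subunits that rose were Psma7 (0.56 ± 0.14 in Bmal1Mye-/-, edgeR adjusted p = 0.0111), Psmb1 (0.51 ± 0.13, 0.0115) and Psmb4 (0.43 ± 0.13, 0.0263). Of the 5 proteasome assembly factors, 2 rose in Bmal1Mye-/- and 1 in the average, and without those 3 libraries 0 and 1. Of the 4 proteasome activators, Psme3 rose in WT (0.47 ± 0.10, edgeR adjusted p = 0.0213) and in Bmal1Mye-/- (0.31 ± 0.10, 0.0359).

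Of 12 chaperones and trimming peptidases, 1 rose in Bmal1Mye-/- and 3 in the average, and none fell. The first was Erap1, the aminopeptidase that trims peptides in the endoplasmic reticulum (0.64 ± 0.13, edgeR adjusted p = 0.00669). Of 13 tested nonclassical (class Ib) heavy chains, 4 rose and 1 fell in the average, 5 of 13 called against 32.7% of all genes. H2-Q4 rose, by 1.30 ± 0.30 (adjusted p = 0.00368), and H2-Q10 fell by 1.40 ± 0.34 (0.00513). H2-Q10 was at 265 ± 33.8 CPM in untreated WT and 275 ± 37.1 CPM in untreated Bmal1Mye-/-, and at 150 ± 117 and 69.7 ± 43.3 CPM with IMQ (SD, n = 5). It is the gene that shares most windows with H2-K1, 179 of 3457.

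Of 18 regulators, 1 rose in WT, 2 rose and 1 fell in Bmal1Mye-/-, and 1 rose in the average. Of all tested genes, 3.95%, 23.5% and 32.7% were called in these comparisons. Nfyb, a subunit of NF-Y, rose in WT (0.42 ± 0.11, edgeR adjusted p = 0.0454), in Bmal1Mye-/- (0.50 ± 0.11, 0.00825) and in the average (0.46 ± 0.08, 0.000752). Rela, a subunit of NF-kB, fell in Bmal1Mye-/- by 0.38 ± 0.10 (adjusted p = 0.0176). Irf1, a transcription factor that interferons induce, did not pass, at -0.09 ± 0.28 in WT and -0.50 ± 0.28 in Bmal1Mye-/-. Of the 20 ISGs, 4 rose in the average, against 18.7% of all tested genes. All 20 had differences above 0 with IMQ in each genotype, with medians of 1.23 and 0.96, and 0 passed in either. In Bmal1Mye-/- this direction rested on 1 library. Of the treated Bmal1Mye-/- mice, 4 had ISG means of 3.27 to 4.11, below the 4.21 to 5.02 of every untreated Bmal1Mye-/- mouse. Without the 2 libraries highest in ISGs, 3 of the 20 were above 0 in Bmal1Mye-/-, with a median of -0.75, and 11 fell by edgeR. In WT 16 of 20 were then above 0, with a median of 0.22 and 0 called, and in the average the median was -0.28 and 4 fell. Of the 14278 genes tested without these libraries, 1290 fell in Bmal1Mye-/- and 1699 in the average, and 117 were called in WT. Those libraries were left out for their ISG level, so the ISG values without them are a description.

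Over the 20 libraries, the members differed in their Pearson correlation with the ISGs, in an order that depended on the 2 libraries highest in ISGs. The correlation of log2 CPM with the ISG mean was 0.89 for Tapbp, 0.80 for Tap1, 0.80 for Nlrc5, 0.79 for Psmb8, 0.76 for Tap2 and 0.71 for Psmb9. It was 0.51 for Psmb10, 0.43 for B2m, 0.41 for H2-D1 and 0.36 for H2-K1. In the 18 libraries left without the 2 highest in ISGs it was 0.73 for Tapbp, 0.58 for Tap2 and 0.41 for H2-D1, and from -0.33 to 0.33 for the other 7. The rank correlation over all 20 was 0.69 for Tapbp, 0.43 for Tap2 and 0.41 for H2-D1, and from 0.14 to 0.39 for the other 7. The genes most like the members' mean level, by Pearson correlation over the 20 libraries, were Gbp2 (0.94), Mir6381 (0.93), Shisa5 (0.93), Casp1 (0.92), Psme2b (0.90), Oasl2 (0.89), Sp110 (0.89), 9330175E14Rik (0.88), Psme1 (0.88) and Zbp1 (0.87). These values describe libraries that share groups and extreme mice.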

How the data were processed

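Neutrophil RNA-seq libraries, 20 in 4 groups of 5, were grouped by the genotype, treatment and number in their labels. The authors deposited 1 file per library with the count of reads for each of 24421 genes, as raw counts with no normalization, and a table of all libraries with the same counts, not used here. The submitters' processing notes name bcl2fastq, STAR 2.7.8a, HTSeq 2.0.1 and mm10, and the paper's methods name another aligner for their own analysis; the annotation and strand setting of the counting are not given in the sources used here. Lines for reads outside genes, 51.9% to 57.8% of reads for those on no feature, were left out. The libraries hold 30782166 to 92613500 counted reads, and at least 504 of each member, a counting error of at most 4.45%. The labels do not say that replicates are separate mice, so p-values measure only the spread between these samples.

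Counts were fitted in R 4.3.3 with edgeR 4.0.16 (TMM factors, filterByExpr with the 4 groups, quasi-likelihood test, 1 mean per group), and p-values were adjusted by the Benjamini-Hochberg method over 14030 genes at 0.05. CPM in the text use TMM factors, and log2 CPM a prior count of 2. The average comparison is the mean of the IMQ differences in WT and Bmal1Mye-/-. Ratios of counts (0.5 added to each) were compared by two-sided exact permutation tests in scipy 1.17.1. The fit was tested on simulated counts. Alternatives were DESeq2 1.42.0, limma 3.58.1 on log2(CPM + 0.1), RLE factors, total counts, no filter or at least 10 counts in every library, only the 2 groups compared, a replicate block, 5 counts added to ratios, and each library left out in turn. The CPM given to limma were scaled by total counts without TMM factors, so limma differs from the main fit in scaling as well as in the test. Leaving out the 2 libraries highest in ISGs and the 3 lowest in neutrophil markers was added after seeing the data.

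Same-numbered libraries were checked for pairing by the correlation of their deviations from group means: 0.13 to 0.43 in the 5 pairs of treated and untreated Bmal1Mye-/-, 0.07 to 0.38 in those of WT (4 of 5 over 0.1), and -0.44 to 0.21 and -0.50 to 0.34 between genotypes without and with IMQ. The rule that every pair be over 0.1 was met only by the Bmal1Mye-/- numbers, and the labels give no source for a pairing. The treated library most like an untreated one had the same number for 3 of 5 in Bmal1Mye-/- and also for 3 of 5 in WT. Whether the libraries are paired is therefore not settled. The replicate block joined the same-numbered libraries of all 4 groups, so it also tied WT to Bmal1Mye-/- libraries.

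Positions, exon lengths and overlaps are from GENCODE M21 on mm10, and shared windows are runs of 50 bases of annotated transcripts found in another gene. Promoters are RefSeq's on GRCm38.p6, with entries for 8 of the 10 members; Nlrc5 and Tap2 have none here. Members and lists were chosen with earlier results of these data known. Named besides the members were Psmb5, Psmb6, Psmb7, Irf1 and Arntl, up to 8 genes of the pathway lists by smallest p among those called in a comparison, and the 10 genes most like the members' mean; 1 other gene named by the rule is not reported here.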

Additional observations from a re-analysis of the deposited data

Results flagged for a closer look

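In 9 of 52 sets of 5 libraries (10 members and 3 ratios in 4 groups), 1 library lay far from the other 4 by Dixon's test at 0.71 of the range. For a single set of normally distributed values chance gives about 1 in 20. The sets here share libraries, the members covary, and CPM and ratios were used without a log, so that rate does not apply to the 52. All 9 came from IMQ-treated WT mouse 1 or IMQ-treated Bmal1Mye-/- mouse 4, the libraries highest in ISGs, and all were high.

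In IMQ-treated WT mouse 1, Tapbp was at 560.3 CPM, Psmb8 at 195.3 CPM, Psmb10 at 55.36 CPM, Nlrc5 at 94.13 CPM and the ratio of Psmb10 to Psmb7 at 0.7632. The 4 other treated WT mice had Tapbp at 218 to 309 CPM, Psmb8 at 88.1 to 92.0 CPM, Psmb10 at 18.5 to 25.2 CPM and Nlrc5 at 13.5 to 31.8 CPM. In IMQ-treated Bmal1Mye-/- mouse 4, Tap1 was at 449.3 CPM, Tapbp at 560.0 CPM, Nlrc5 at 135.4 CPM and the ratio of Psmb8 to Psmb5 at 8.78. The 4 others of that group had Tap1 at 80.4 to 176 CPM, Tapbp at 158 to 251 CPM and Nlrc5 at 9.97 to 34.0 CPM. H2-K1, H2-D1 and B2m were not among them in either group. The neutrophil markers of these libraries summed to 163400 and 152200 CPM, within or above the range of the untreated mice, and their monocyte and macrophage markers to 204 and 294 CPM.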

How the results depend on the processing

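The number of members called stayed at 0 under every alternative run for the untreated genotypes, the interaction and the 12 ratio tests. For IMQ in WT it went from 0 to 2 without the 3 libraries lowest in neutrophil markers, and for IMQ in Bmal1Mye-/- to 4 without those and to 1 (Tapbp, lower) without the 2 highest in ISGs. For the treated genotypes it was 0 to 1 with each library left out in turn. For the average of both genotypes, 2 in the fit reported, it was 0 by limma, 0 with the replicate block, 1 (Tapbp, lower) without the 2 libraries highest in ISGs, 5 without the 3 lowest in neutrophil markers, and 0 to 4 with each library left out: 0 without IMQ-treated WT mouse 1 or IMQ-treated Bmal1Mye-/- mouse 4, and 4 without IMQ-treated mouse 5 of either genotype. DESeq2, RLE factors, no filter and the stricter filter gave 2, and total counts 3. The block changed no other call. The libraries left out for ISGs or for neutrophil markers included those highest and lowest in the members' mean level. The calls made without them are therefore descriptions. Tapbp in the average turned from 0.03 to -0.33. The cause was not tested.

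Of member differences that passed neither as reported nor under the alternative, 35 of 550 changed sign across alternatives and 51 of 1154 with a library left out, all with reported values between -0.31 and 0.36. Psmb8 in the average went from 0.28 to -0.08 without the 2 libraries highest in ISGs. The 12 ratio differences did so in 8 of 48 and 22 of 240.

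The number of all genes called also depended on the setting. In the average of both genotypes it was 4583, 3767 to 5174 under the other settings and 3867 to 5412 with each library left out. For IMQ in WT, 554 were called, against 1494 by DESeq2, 186 from only these groups, 190 with the block, 326 without a filter, 117 without the 2 libraries highest in ISGs, 1236 without the 3 lowest in neutrophil markers, and 48 to 1989 with each library left out. For IMQ in Bmal1Mye-/- 3292 became 2037 without those 3, and 1612 to 4499. For the treated genotypes 41 became 310 by DESeq2, 16 from only these groups and 20 to 3129 (the highest without IMQ-treated WT mouse 3), and for the untreated ones 29 became 59 from only these groups. The interaction called 0 to 1. The lowest count of a member in any library was 504, a counting error of 4.45%.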
